A study of Rattus norvegicus with 16 samples.

Results

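The genes described here are 10 genes grouped for their links to the loss of specialised form and the repair of damaged renal tubule cells. They are the intermediate filament genes Vim, Krt8, Krt18, Krt19 and Krt20, the adhesion genes Cd44 and Vcam1, the annexin gene Anxa2, the lysosomal membrane glycoprotein gene Gpnmb and the trefoil peptide gene Tff3. They were chosen by name, and each was found on the array through its RefSeq accession, by 19 probes in all, among 15284 genes with a named probe. The arrays measured RNA of the renal outer medulla of male Sprague-Dawley rats that were 5 weeks old when dosing began. The treated rats received 2-amino-4-nitrophenol (ANP), a nitroaromatic compound, by mouth at 750 mg/kg/day, and the vehicle controls (VC) received corn oil alone. For days 1 and 7 there was a single array per group, hybridised with a pool of RNA of 3 rats, and for days 14 and 28 there were 3 rats per group with their own arrays, 16 arrays in all. No group carried a genetic change, and the tissue was a whole zone of the kidney that holds several segments of the nephron, vessels and interstitium.

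After injury, surviving cells of the proximal tubule flatten, lose their brush border, take up the intermediate filaments of less specialised cells and spread over the bare basement membrane. Keratins 8 and 18 pair to form the filaments of simple epithelia, keratin 19 is common in ducts, and keratin 20 is typical of urothelium and intestine. Vimentin is the filament of mesenchymal and endothelial cells. CD44 binds hyaluronan and osteopontin, VCAM-1 binds leukocyte integrins, and annexin A2 links membranes to actin and, with its partner S100A10, assembles plasmin at the cell surface. GPNMB is also a product of macrophages laden with lysosomes, and TFF3 is secreted by mucosal and some renal epithelia to help cells migrate over wounds.

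Levels are given as the log2 of the spot signal relative to the 75th percentile of its array, so a value of 0 is the level of that percentile and a step of 1 is a doubling. They compare the same probe between arrays and not one gene with another. A difference at day 14 or 28 was called where limma's adjusted p, over 11849 genes, was under 0.05. At days 1 and 7 there was no replicate, so differences there carry no error or test. In tissue RNA, a change in the number of cells of a type and a change in RNA per cell cannot be told apart. The share of probes marked as well above background ran from 64.75% to 69.6% by array. All 20 genes listed as markers of the straight proximal tubule were well above background throughout. So were all 10 of the thick ascending limb that had a probe, and all 7 podocyte markers, which belong to the cortex. Detection of these lists therefore does not tell the outer medulla from cortex.

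At day 1 the response of the 10 genes was split. Krt20, Cd44, Anxa2 and Gpnmb were at least 2-fold higher in the ANP pool than in the vehicle pool, while Vim, Krt8, Krt18 and Vcam1 lay at most 1.54-fold above it and Krt19 and Tff3 were lower. Over 12413 genes, a 2-fold or larger difference was seen in 4.83% upwards and in 4.95% downwards. The median log2 ratio was 0.44 for the 10 genes and -0.04 for all genes. At day 7 only Krt20 passed 2-fold by its measured signal. Against the lowest signal marked as above background on the vehicle array it was 1.4-fold higher. There 2.12% of 12122 genes were at or past 2-fold upwards and 2.53% downwards, and the median of the 10 was 0.02. At day 14 Gpnmb alone of the 9 genes tested rose, and at day 28 Anxa2 alone, with 0.363% and 4.49% of all genes called higher at these days and 0.481% and 7.18% called in either direction. None of the 9 was called lower at either day, where 0.118% and 2.69% of all genes were. The median log2 ratio of the 9 was 0.25 at day 14 and -0.14 at day 28, against 0.01 and 0.02 for all genes.

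**Figure D1:**
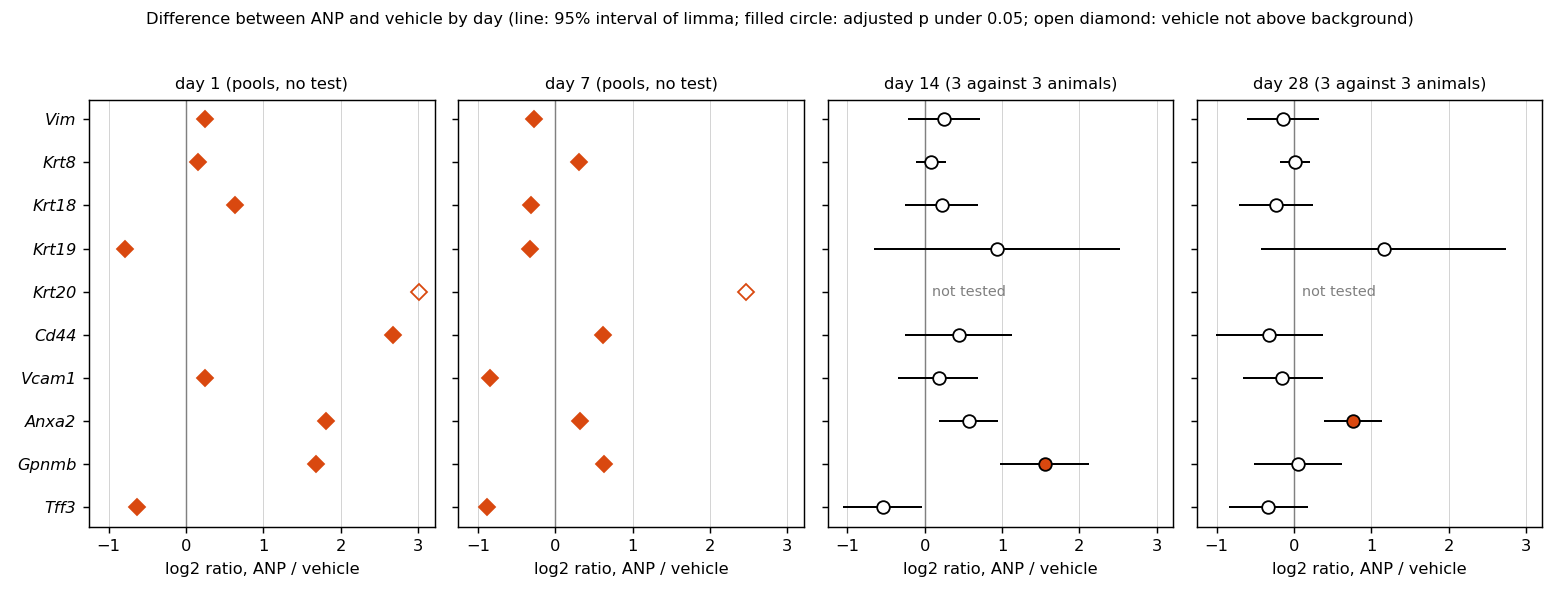
Log2 ratio of ANP to vehicle (x axis) for each of the 10 genes (y axis) at days 1, 7, 14 and 28. Diamonds are ratios of 1 pooled array to another. They are open for Krt20, where vehicle was not above background. Against the lowest signal marked as above background on the vehicle array, ANP was 4.56-fold and 1.4-fold higher in this scaling. Circles are limma estimates with 95% intervals from 3 against 3 animals. Among the circles Gpnmb at day 14 (1.55) and Anxa2 at day 28 (0.77) are filled as called.

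The promoters of the 4 genes that were at least 2-fold higher in the day 1 pool are shown because these genes stood together in that comparison. Each stretch runs from 250 bases before the start site to 50 bases after it, 5′ to 3′ on the gene's strand, from RefSeq on GRCr8, and capitals mark matches to the motifs searched on both strands.
Cd44 promoter, chr3:109699375-109699674, minus strand: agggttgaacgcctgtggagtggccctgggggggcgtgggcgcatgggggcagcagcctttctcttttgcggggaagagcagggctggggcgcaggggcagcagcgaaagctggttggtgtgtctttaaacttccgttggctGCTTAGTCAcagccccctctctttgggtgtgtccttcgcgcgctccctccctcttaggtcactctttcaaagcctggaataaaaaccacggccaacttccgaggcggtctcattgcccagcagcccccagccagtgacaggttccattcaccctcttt
Krt20 promoter, chr10:84890236-84890535, minus strand: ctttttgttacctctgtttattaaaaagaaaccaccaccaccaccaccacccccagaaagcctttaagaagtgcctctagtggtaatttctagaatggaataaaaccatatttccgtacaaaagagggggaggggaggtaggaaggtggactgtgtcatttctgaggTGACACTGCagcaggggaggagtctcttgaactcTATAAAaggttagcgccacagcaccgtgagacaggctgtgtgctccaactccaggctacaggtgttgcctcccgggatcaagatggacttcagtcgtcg
Anxa2 promoter, chr8:78986002-78986301, plus strand: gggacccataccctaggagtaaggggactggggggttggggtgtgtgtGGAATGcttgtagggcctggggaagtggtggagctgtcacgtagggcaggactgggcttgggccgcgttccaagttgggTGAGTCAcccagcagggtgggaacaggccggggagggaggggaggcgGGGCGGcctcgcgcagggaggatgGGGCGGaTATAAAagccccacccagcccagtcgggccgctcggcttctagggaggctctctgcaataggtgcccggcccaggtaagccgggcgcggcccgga
Gpnmb promoter, chr4:79340878-79341177, plus strand: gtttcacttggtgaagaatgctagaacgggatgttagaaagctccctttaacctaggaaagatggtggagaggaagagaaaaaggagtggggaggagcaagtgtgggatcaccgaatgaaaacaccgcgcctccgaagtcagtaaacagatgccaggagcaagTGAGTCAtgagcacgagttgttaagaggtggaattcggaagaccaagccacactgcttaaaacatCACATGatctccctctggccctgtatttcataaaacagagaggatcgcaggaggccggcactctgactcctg
The motifs were AP-1 (TGANTCA), the antioxidant response element (TGACNNNGC), the E-box (CACGTG), the M-box core (CATGTG), the TATA box (TATAAA), the TEAD site (CATTCC), the SP/KLF site (GGGCGG), NF-kB and CArG. Anxa2 and Gpnmb each held TGAGTCA, which matches AP-1, with its first base at -123 and -87 from the start site. Of 33469 promoters in the table, 7.33% held this motif. Cd44 and Krt20 each held an antioxidant response element match, present in 12.1% of all promoters. Gpnmb also held an M-box core, present in 14.0%. Anxa2 and Krt20 each held a TATA box (14.2%), and Anxa2 held a TEAD match (14.2%) and a pair of SP/KLF matches (33.1%). Of the other 5 genes with a promoter in the table, Krt8 held AP-1 (TGACTCA) and Tff3 an M-box core. Vim, Krt18 and Vcam1 held NF-kB matches, present in 7.51% of all promoters. A TATA box was also found in Vim, Krt8, Vcam1 and Tff3, and an SP/KLF match in Vim, Krt18 and Tff3. Vcam1 held an E-box, present in 6.42%. These are matches of letters in a short window, and nothing on binding was measured.

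Krt20, the keratin of urothelium and intestine, was the least detected of the filament genes. Its single probe was well above background on 4 arrays, all from ANP animals: both pools, replicate 2 of day 14 and replicate 2 of day 28. In the day 1 pools it stood at -3.86 with ANP and -6.87 with vehicle, where it was not well above background. The ANP signal was 4.56-fold above the lowest signal marked as above background on the vehicle array. In the day 7 pools it stood at -5.41 and -7.88, and the ANP signal was 1.4-fold higher by that measure. These ratios belong to the scaling used here. They are not strict bounds, since marked and unmarked spots overlap in level. On vehicle replicate 1 of day 14 the probe was unmarked at -5.19, above the marked ANP pool of day 7. Under the other settings the log2 ratio ran from 0.79 to 3.23 at day 1 and from 0.39 to 2.48 at day 7. The vehicle arrays of day 14 stood at -5.19, -7.57 and -6.76 and the ANP arrays at -5.84, -4.97 and -7.58, so the groups overlapped. Those of day 28 stood at -7.64, -7.65 and -7.32 and the ANP arrays at -7.73, -5.02 and -7.17, with replicate 2 alone apart. Krt20 did not reach the detection filter at days 14 and 28 and was not tested there. Of 8 urothelial markers with a probe, between 5 and 8 were well above background on each array, and their summed signal was 1.01 in both day 1 pools, in units of the 75th percentile, and 0.689 (vehicle) and 0.749 (ANP) in the day 7 pools.

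Krt19, a keratin of ducts, varied most between animals of the 9 genes tested, with the largest SE. In the day 1 pools it stood at 0.43 with ANP and 1.22 with vehicle, a log2 ratio of -0.79, and at day 7 at 1.14 and 1.47. Among day 14 animals, the vehicle arrays stood at -0.62, 2.01 and 2.29 and the ANP arrays at 1.02, 2.70 and 2.78. Replicate 1 was the low array of each group, and the groups overlapped. The log2 ratio at day 14 was 0.94 ± 0.71 (SE; n = 3 in each group, limma adjusted p = 0.635), and without vehicle replicate 1 it was 0.02. Among day 28 animals, the vehicle arrays stood at 0.23, 0.76 and 1.43 and the ANP arrays at 2.07, 1.85 and 1.97, without overlap. Groups of day 28 that did not overlap, with ANP higher, were found for 18.6% of all genes. The log2 ratio there was 1.16 ± 0.71, with a 95% interval from -0.43 to 2.74, and it was not called (limma adjusted p = 0.331). The model shares 1 error per gene over both days, and with the 6 arrays of day 28 alone limma's adjusted p was 0.0795. On vehicle replicate 1 of day 14 the mean log2 level of the collecting duct markers was 1.54, against 1.67 and 1.91 on the other vehicle arrays, and that of inner medulla and thin limb markers was 0.29, against 0.47 and 0.58. That array was also the lowest of its group for thick ascending limb (3.49), macrophage and myeloid (-0.06), endothelial (0.75) and fibroblast and pericyte (1.30) markers. For straight proximal tubule markers it was the highest (5.69). At day 28 the collecting duct means were 1.46, 1.41 and 1.98 with ANP and 1.93, 1.80 and 1.93 with vehicle. Those of inner medulla and thin limb were 0.23, 0.19 and 0.50 with ANP and -0.14, -0.16 and 0.19 with vehicle. The part of any of these cells in the Krt19 values was not tested.

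Krt8 and Krt18, the paired keratins of simple epithelia, differed little between ANP and vehicle. Krt8 lay between 1.76 and 2.39 on all 16 arrays. Its log2 ratio was 0.08 ± 0.09 at day 14 (95% interval -0.11 to 0.27; limma adjusted p = 0.776) and 0.01 ± 0.09 at day 28 (95% interval -0.18 to 0.21; limma adjusted p = 0.936), so differences beyond these bounds lie outside the intervals. Krt18 stood at 3.86 with ANP and 3.24 with vehicle in the day 1 pools and at 2.84 and 3.16 in the day 7 pools, so the sign turned. Its other pair of probes gave 0.49 and 0.55 at day 1 and -0.42 and -0.52 at day 7, beside 0.63 and -0.32. At days 14 and 28 the Krt18 groups overlapped, with log2 ratios of 0.22 ± 0.21 (limma adjusted p = 0.728) and -0.23 ± 0.21 (limma adjusted p = 0.517).

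Vim, the filament gene of mesenchymal and endothelial cells, stood at 1.43 with ANP and 1.19 with vehicle at day 1, and at 0.93 and 1.2 at day 7. At day 14 the vehicle arrays stood at 0.84, 0.89 and 1.34 and the ANP arrays at 1.01, 1.76 and 1.06. Replicate 2 was the one ANP array above all vehicle arrays. The log2 ratio was 0.25 ± 0.21 (95% interval -0.22 to 0.72; limma adjusted p = 0.675), and without ANP replicate 2 it was 0.01. At day 28 it was -0.14 ± 0.21 (95% interval -0.61 to 0.33; limma adjusted p = 0.714). Fibroblast and pericyte markers, whose cells express Vim, had their highest mean log2 level, 1.85, on that same day 14 replicate 2, with the other ANP arrays at 1.22 and 1.46 and the vehicle arrays from 1.30 to 1.61. The summed signal of the 13 markers was 43.2 to 56.8 with vehicle and 47.1 to 64.8 with ANP at day 14, and Lum, Postn and Fap were not well above background on any array. The part of these cells in the Vim values was not tested.

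Of the 17 genes listed with the filaments (other keratins, lamins, nestin, desmin and the linkers of filaments to desmosomes), 13 could be tested. At day 14 none was called, and at day 28 none rose and Nes, which encodes the filament nestin, fell 1.73-fold (log2 ratio -0.79 ± 0.20; limma adjusted p = 0.041). Nes was 2.52-fold higher in the vehicle animals of day 28 than in those of day 14 (limma adjusted p = 0.00504), which were on another slide.

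Cd44, the hyaluronan receptor, had the most marked difference of the adhesion genes at day 1 and none that was called afterwards. Its best-detected probe stood at 0.97 with ANP and -1.70 with vehicle at day 1, a 6.37-fold difference, and at -0.52 and -1.14 at day 7, a 1.54-fold difference. A second well-detected probe gave 6.54-fold and 1.49-fold. On its best-detected probe at day 14, the vehicle arrays stood close together at -1.0, -0.96 and -0.97. The ANP arrays stood at -0.88, 0.39 and -1.13. Replicate 2 was thus far above the vehicle arrays on this probe, and replicate 3 below all of them. The log2 ratio was 0.44 ± 0.31 (95% interval -0.25 to 1.13; limma adjusted p = 0.606), and without ANP replicate 2 it was -0.03. At day 28 the vehicle arrays stood at -1.24, -0.99 and -0.91 and the ANP arrays at -1.54, -1.31 and -1.24. Cd44 was thus -0.32 ± 0.31 on the log2 scale (95% interval -1.01 to 0.37; limma adjusted p = 0.549). Of its 6 probes, a pair was well above background with ANP and not with vehicle at day 1. With ANP this pair stood 3.14-fold and 1.81-fold above the lowest signal marked as above background on the vehicle array. Another probe was 1.43-fold higher, and the last was not well above background on any array. At day 14 the second well-detected probe stood at -1.76, -1.25 and -1.15 with vehicle and at -1.10, 0.14 and -1.14 with ANP. On that probe the groups did not overlap, as for 10.3% of all genes with ANP higher. Its log2 ratio was 0.69 ± 0.30 (limma adjusted p = 0.424 over all probes), with replicate 2 again the highest.

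Vcam1, the ligand of leukocyte integrins, did not show the day 1 difference of Cd44. It stood at 2.15 with ANP and 1.91 with vehicle at day 1, and at 1.55 and 2.40 at day 7, where it was 1.8-fold lower. At day 14 the ANP arrays stood at 1.61, 2.70 and 1.82 and the vehicle arrays at 1.71, 2.0 and 1.88, so replicate 2 was again the high array. The log2 ratios were 0.18 ± 0.23 at day 14 (limma adjusted p = 0.814; -0.15 without ANP replicate 2) and -0.15 ± 0.23 at day 28 (limma adjusted p = 0.728). In the day 7 ANP pool, where Vcam1 was low, 0 of 9 endothelial markers and 1 of 16 macrophage and myeloid markers were above the vehicle pool, with median log2 ratios of -0.30 and -0.54. Their summed signals were 73.0 and 94.6 with ANP and 80.1 and 132 with vehicle. The part of these cells in the Vcam1 values was not tested.

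Of 23 partners of CD44 and VCAM-1 and other adhesion genes, 18 could be tested. None was called at day 14. At day 28 none rose, and Cdh1, which encodes the epithelial cadherin of cell junctions, fell 1.56-fold (log2 ratio -0.64 ± 0.10; limma adjusted p = 0.0089), as did Cdh16, the kidney-specific cadherin, 1.22-fold (-0.29 ± 0.08; limma adjusted p = 0.0488). Between the day 1 pools none of the 18 differed by 2-fold in either direction. The hyaluronan synthase genes Has2 and Has3 were not well above background on any array.

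Anxa2 was higher with ANP at each of the 4 times. In the day 1 pools it stood at 6.02 with ANP and 4.22 with vehicle, a 3.5-fold difference, and in the day 7 pools at 4.79 and 4.48, a 1.24-fold difference. Vehicle arrays of day 14 stood at 4.22, 4.65 and 4.63 and the ANP arrays at 4.75, 5.34 and 5.11. Vehicle arrays of day 28 stood at 3.60, 3.89 and 4.04 and the ANP arrays at 4.61, 4.64 and 4.58. The groups did not overlap at either day, and the ANP arrays of day 28 lay close together (SD 0.03). Groups without overlap and with ANP higher were found for 10.3% of all genes at day 14 and for 18.6% at day 28. Anxa2 was at 0.57 ± 0.17 at day 14 and did not pass (limma adjusted p = 0.194), and at day 28 it rose 1.7-fold (0.77 ± 0.17 as log2, n = 3 a group; limma adjusted p = 0.028). Its second probe gave 0.60 and 0.78. With slide as a fixed block, where 1 ANP array of day 14 remains beside the vehicle arrays, the day 14 log2 ratio was 0.25. The effects of the 2 days differed by 0.20 ± 0.24 (95% interval -0.34 to 0.73; limma adjusted p = 0.812). In the mean of both days, a contrast added after the values were seen, Anxa2 was 1.59-fold higher (0.67 ± 0.12; limma adjusted p = 0.0098, where 6.14% of all genes were called higher, 4.08% lower and 10.2% in either direction), with adjusted p from 0.00769 to 0.0287 when each of the 12 arrays was left out in turn.

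Anxa2 was 1.57-fold lower in the vehicle animals of day 28 than in those of day 14 (log2 ratio -0.65 ± 0.17; limma adjusted p = 0.0347), where 4.16% of all genes were called lower and 6.99% higher. The vehicle arrays of day 14 were all on one slide and those of day 28 all on another, so between these vehicle groups day and slide cannot be told apart from the vehicle arrays alone. With slide as a fixed block, which links the slides only through the ANP arrays of day 14, the log2 ratio was -1.13 (limma adjusted p = 0.15), and no gene was called. The ANP mean of day 28, 4.61, lay near the vehicle mean of day 14, 4.50. The vehicle group of day 28 had the lowest mean Anxa2 of all groups, 3.85. Its part in the day 28 call was not tested. The call at day 28 was lost when any ANP array of that day was left out (limma adjusted p from 0.0509 to 0.0795), or vehicle replicate 1 (0.0981) or replicate 2 (0.0836), while the log2 ratio stayed between 0.64 and 0.86. With quantile normalization it was 0.66 (limma adjusted p = 0.0736). The 3 ANP arrays of day 28 were on a slide of their own, so slide and treatment cannot be told apart at this day.

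Some markers of neighbouring zones also differed between that vehicle group and the others. The summed signal of the 10 inner medulla and thin limb markers was 133 to 174 in the vehicle arrays of day 28, 225 to 237 in the ANP arrays of day 28 and 262 to 318 in the vehicle arrays of day 14. The summed signal of the 7 podocyte markers was 26.2 to 34.7, 16.1 to 17.5 and 13.2 to 15.7 in the same order. Such sums are led by the brightest probes. Taken singly, 3 of the 10 inner medulla markers were above 0 in vehicle animals of day 28 against day 14. Of these 10, 2 were called lower, and the median log2 ratio was -0.52. All 7 podocyte markers were above 0 there, 5 of them called higher, with a median of 1.77. At day 28, 1 of the 10 inner medulla markers rose, the lens and medulla chaperone gene Cryab (1.6-fold; limma adjusted p = 0.0131). The podocyte genes Podxl and Ptpro fell (1.7-fold and 1.99-fold; limma adjusted p = 0.00731 and 0.0232). Of 14 collecting duct markers 4 fell, led by Hsd11b2, which inactivates glucocorticoids (2.09-fold; limma adjusted p = 0.00302). Hsd11b2 was 2.04-fold higher in the vehicle animals of day 28 than in those of day 14 (limma adjusted p = 0.00227). The part of the zone sampled in the Anxa2 difference was not tested.

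**Figure D2:**
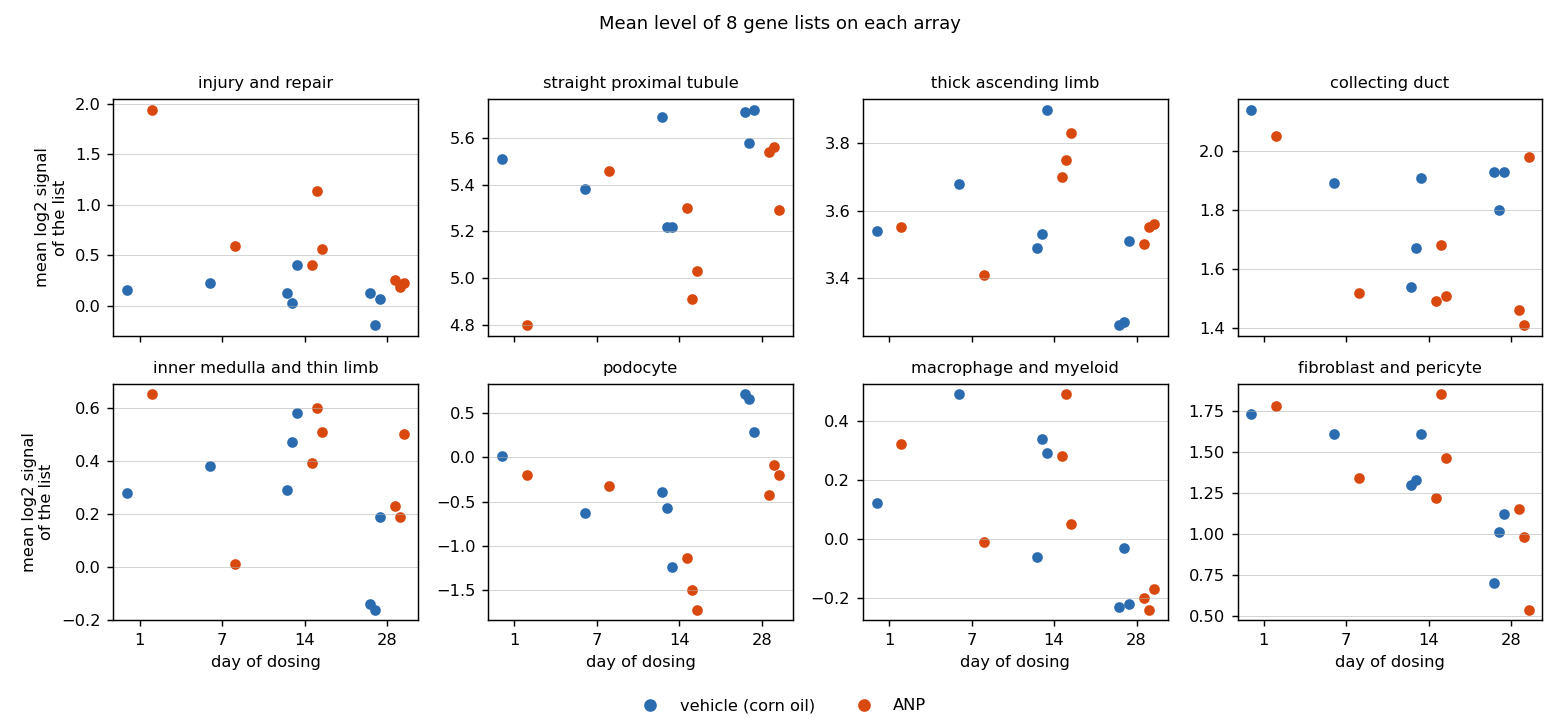
Mean log2 signal (y axis) of 8 gene lists on each of the 16 arrays by day of dosing (x axis), with 1 point per array. Vehicle arrays of day 28 have the lowest inner medulla and thin limb means (from -0.16 to 0.19, where 1 of them meets the lowest ANP array at 0.19) among the arrays of days 14 and 28 and the highest podocyte means (0.28 to 0.71).

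Of 16 annexin, S100 and related genes, 15 could be tested, none was called at day 14, and 1 rose and 1 fell at day 28. The annexin gene Anxa6 rose 1.5-fold (limma adjusted p = 0.0128) and Plat, which encodes tissue plasminogen activator, fell 1.37-fold (limma adjusted p = 0.0227). In vehicle animals of day 28 against day 14, on separate slides, Anxa6 was 1.51-fold lower (limma adjusted p = 0.00808). Plat was 1.67-fold higher there (limma adjusted p = 0.00294). S100a10, which encodes the partner of annexin A2, had a log2 ratio of 1.91 in the day 1 pools. It was at 0.41 at day 14 (limma adjusted p = 0.222) and at 0.47 at day 28 (limma adjusted p = 0.0619), without a call. In vehicle animals of day 28 against day 14 it was at -0.46 (limma adjusted p = 0.0536). Of the 15 genes, 8 were above 0 at day 14 and 10 at day 28. Between the day 1 pools 4 of the 15 lay 2-fold or more above vehicle and 1 lay as far below it.

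Gpnmb, the gene of a lysosomal and macrophage glycoprotein, was higher with ANP up to day 14 and not at day 28. In the day 1 pools it stood at -0.11 with ANP and -1.79 with vehicle, a 3.21-fold difference, and in the day 7 pools at -1.37 and -2.0, a 1.55-fold difference. By day 14 the vehicle arrays stood at -2.62, -2.27 and -2.85 and the ANP arrays at -1.20, -0.51 and -1.38, so each ANP array was above every vehicle array. Gpnmb rose 2.93-fold (1.55 ± 0.26 as log2, n = 3 a group, 95% interval 0.98 to 2.12; limma adjusted p = 0.0361). By day 28 the vehicle arrays stood at -2.12, -2.70 and -2.57 and the ANP arrays at -2.65, -2.06 and -2.54. The groups overlapped, and the log2 ratio was 0.05 ± 0.26 (95% interval -0.52 to 0.62; limma adjusted p = 0.927). The vehicle groups of the 2 days did not differ beyond their spread (0.11 ± 0.26; limma adjusted p = 0.829). The difference between the effects of day 28 and day 14 was -1.50 ± 0.36 (95% interval -2.31 to -0.69; limma adjusted p = 0.377). By limma no gene was called for it, and 9.27% had an unadjusted p under 0.05.

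Ordered by level, Gpnmb was highest in the ANP pool of day 1, then in the ANP animals of day 14 (mean -1.03, SD 0.46), the ANP pool of day 7, the vehicle pools of day 1 and day 7, and last in the ANP (-2.42, SD 0.32) and vehicle (-2.47, SD 0.30) animals of day 28 and the vehicle animals of day 14 (-2.58, SD 0.29). The last 3 groups lay within 1 SD of each other. The day 14 call was lost when any array of that day was left out (limma adjusted p from 0.0672 to 0.0956, log2 ratio from 1.29 to 1.73) and without vehicle replicate 3 of day 28 (0.0596), and with the 6 arrays of day 14 fitted alone (0.11). The vehicle arrays and ANP replicate 1 of day 14 shared a slide, and within it the log2 ratio was 1.38 (limma adjusted p = 0.491 in the fit with a fixed term for slide, where a single ANP array is left).

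**Figure D3:**
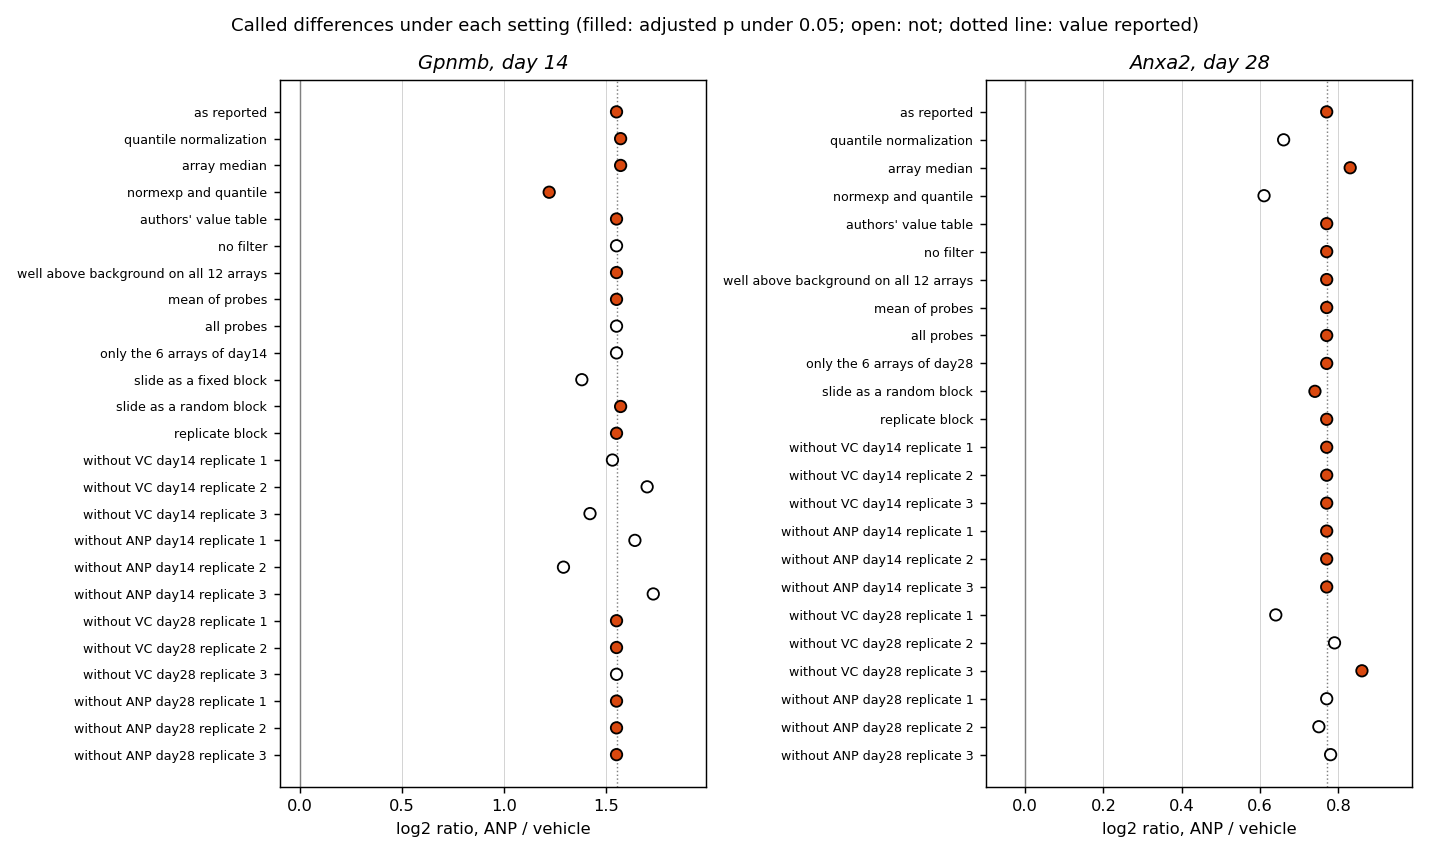
Log2 ratio of ANP to vehicle (x axis) for Gpnmb at day 14 (left) and Anxa2 at day 28 (right) under each setting (y axis), with filled points where limma's adjusted p is under 0.05. The ratios keep their sign under each setting shown, from 1.22 to 1.73 for Gpnmb and from 0.61 to 0.86 for Anxa2, while the calls do not hold under all.

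Of 16 macrophage and myeloid markers tested at day 14 none was called in either direction, 7 were above 0, and their median log2 ratio was -0.04 against 0.01 for all genes. The haemoglobin scavenger receptor gene Cd163 was at 1.14 ± 0.65 (limma adjusted p = 0.493) and the lipopolysaccharide coreceptor gene Cd14 at 0.70 ± 0.19 (limma adjusted p = 0.16), both named after their values were seen. Over the 3 ANP arrays of day 14 the mean log2 level of the markers was 0.28, 0.49 and 0.05, in the same order of arrays as Gpnmb. On the vehicle arrays it was -0.06, 0.34 and 0.29, and the order was not shared. There both were highest on replicate 2, but Gpnmb was lowest on replicate 3 and the markers on replicate 1. The summed signal of the 17 with a probe was 121 to 145 in the vehicle arrays and 106 to 131 in the ANP arrays of day 14, and between 15 and 17 of them were well above background on each array. In the day 1 pools, where Gpnmb was 3.21-fold higher, the sums were 96.5 with ANP and 99.0 with vehicle, and 12 of 17 markers were above 0 with a median log2 ratio of 0.15. The part of these cells in the Gpnmb values was not tested. Of 22 lysosome genes and genes of the MiT/TFE factors that drive lysosome formation, none was called at day 14. At day 28 Sqstm1, the autophagy receptor p62, rose 1.64-fold (limma adjusted p = 0.0232).

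Tff3, the trefoil peptide, was below vehicle in the mean at each of the 4 times, without a call. It stood at 7.09 with ANP and 7.72 with vehicle at day 1 and at 7.52 and 8.40 at day 7, and its second probe gave log2 ratios of -0.70 and -0.95 beside -0.63 and -0.88. At day 14 the vehicle arrays stood at 8.60, 9.03 and 8.74 and the ANP arrays at 8.58, 8.08 and 8.09, with replicate 1 just below the vehicle arrays. The log2 ratio was -0.54 ± 0.23 (95% interval -1.05 to -0.03; limma adjusted p = 0.347), and 7.92% of all genes had ANP below vehicle without overlap. At day 28 the vehicle arrays stood at 8.0, 8.21 and 8.30 and the ANP arrays at 8.38, 7.68 and 7.46, with replicate 1 above the vehicle arrays, and the log2 ratio was -0.33 ± 0.23 (limma adjusted p = 0.391). Over both days it was -0.43 ± 0.16 (limma adjusted p = 0.117). Tff3 was also lower in the vehicle animals of day 28 than in those of day 14, without overlap but without a call (-0.62 ± 0.23; limma adjusted p = 0.116), and 15.9% of all genes were lower without overlap there. Of 11 genes of trefoil and mucosal secretion only 5 could be tested, and none was called at day 14. Pigr, the transporter of secreted antibody, fell 1.84-fold at day 28 (limma adjusted p = 0.0239). Pigr was 1.87-fold higher in the vehicle animals of day 28 than in those of day 14, on another slide (limma adjusted p = 0.0143).

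**Figure D4:**
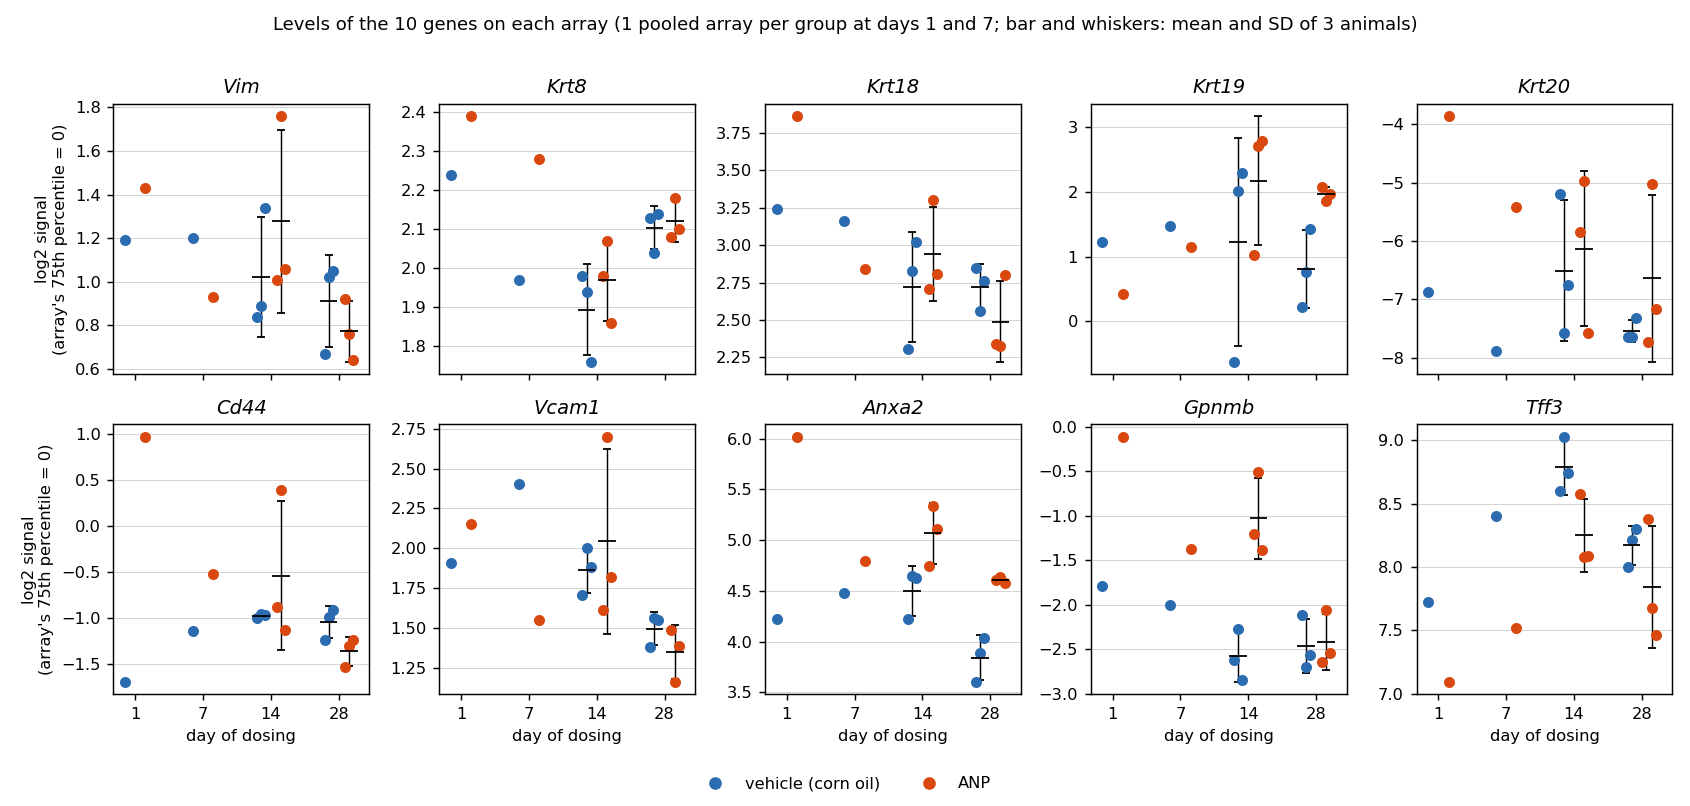
Log2 signal relative to the array's 75th percentile (y axis) of the 10 genes on each array by day of dosing (x axis), with 1 point per array and the mean and SD where there are 3 animals. The ANP pool of day 1 is the highest of the 16 arrays for Krt20 (-3.86), Cd44 (0.97), Anxa2 (6.02) and Gpnmb (-0.11).

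Single arrays stood apart within both ANP and vehicle groups. At day 14 replicate 2 was the highest of the 3 ANP arrays for 7 of the 9 genes tested (Vim, Cd44, Krt8, Krt18, Vcam1, Anxa2 and Gpnmb), while it was the highest for 31.2% of all genes. Vehicle replicate 1 of day 14 was the lowest of its group for 7 of the 9 (31.5% of all genes), vehicle replicate 3 of day 28 the highest for 6 (36.1%) and vehicle replicate 1 of day 28 the lowest for 6 (38.3%). Against the vehicle mean, ANP replicate 2 of day 14 stood 2.07 higher for Gpnmb, 1.37 for Cd44, 0.84 for Anxa2, 0.83 for Vcam1 and 0.74 for Vim on the log2 scale. Replicates 1 and 3 stood at 1.38 and 1.2 for Gpnmb and within 0.25 of the vehicle mean for Cd44, Vcam1 and Vim. Cd44 is read here from its best-detected probe. The other injury and repair genes on the same array had a mean log2 level of 1.14, against 0.40 and 0.56 on the other ANP arrays and 0.03 to 0.40 with vehicle. Macrophage and myeloid markers, given above, were also highest on replicate 2 among these ANP arrays. Among the ANP arrays of day 28 the genes were spread, with 4, 3 and 2 of the 9 genes highest on replicates 1, 2 and 3.

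**Figure D5:**
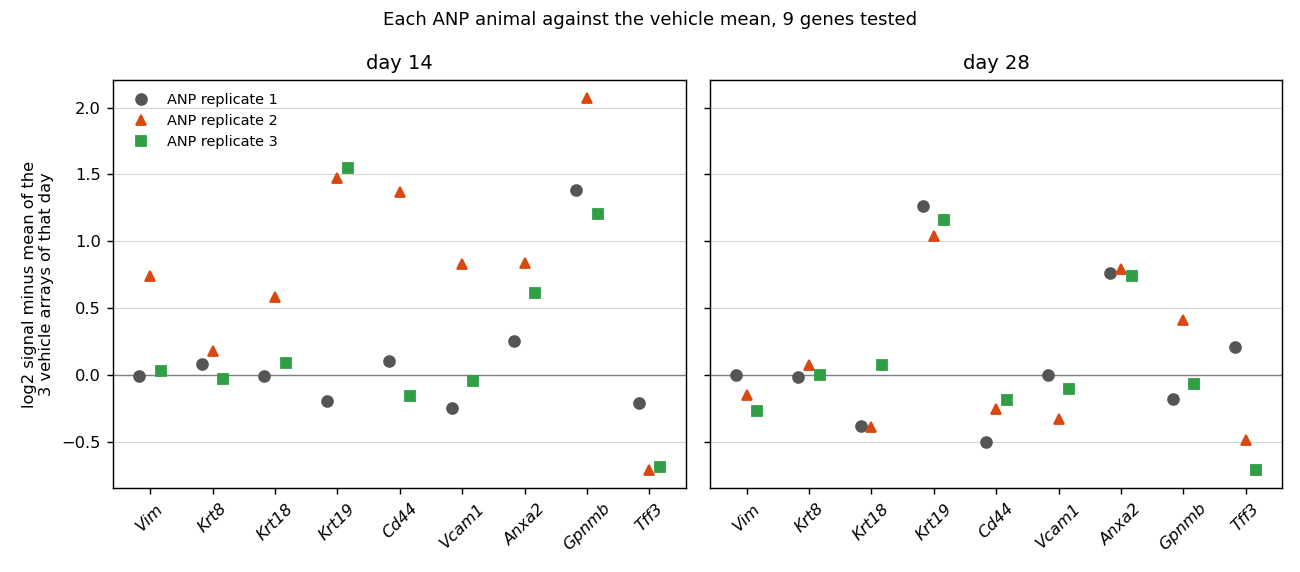
Log2 signal of each ANP animal minus the mean of the 3 vehicle arrays of its day (y axis) for the 9 genes tested (x axis), at day 14 (left) and day 28 (right). At day 14 replicate 2 stands above the others for Vim, Cd44, Krt18 and Vcam1, and at day 28 the 3 animals lie together for Anxa2.

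The wider list of 24 injury and repair genes, all tested, had most of its differences in the day 1 pools and few calls later. Between the day 1 pools 16 of the 24 were at least 2-fold higher and 1 lower, with a median log2 ratio of 1.43, and in the day 7 pools 4 were higher and 2 lower, with a median of 0.12. At day 14 none was called in either direction, and the median was 0.38. At day 28 Areg, which encodes the EGF receptor ligand amphiregulin, rose 11.6-fold (log2 ratio 3.54 ± 0.57; limma adjusted p = 0.00981), while Cdh6, a cadherin of the developing proximal tubule, fell 1.72-fold (limma adjusted p = 0.0152) and Dcdc2, a doublecortin family gene, fell 2.12-fold (limma adjusted p = 0.0402). Cdh6 was 1.9-fold higher in the vehicle animals of day 28 than in those of day 14, on another slide (limma adjusted p = 0.00587). Of 17 repair transcription factor genes tested none was called at day 14 and Sox11, a factor of progenitor cells, rose 1.86-fold at day 28 (limma adjusted p = 0.0229). Of the 20 straight proximal tubule markers, which dedifferentiating cells lose, 1 was above 0 in the day 1 pools and 3 were lower by 2-fold or more, with a median log2 ratio of -0.69 against -0.04 for all genes. Their summed signal was 1780 with ANP and 2680 with vehicle. At day 14 none was called, and at day 28 the organic anion transporter gene Slc22a7 rose 3.2-fold (limma adjusted p = 0.00474) and the megalin gene Lrp2 fell 1.64-fold (limma adjusted p = 0.0253). In vehicle animals of day 28 against day 14, on separate slides, Slc22a7 was 2.21-fold lower (limma adjusted p = 0.00881). Lrp2 was not called there (limma adjusted p = 0.137).

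Among other genes, the profile over all 16 arrays that lay closest to each of the 9 was found by the root mean square difference of log2 values, each gene centred on its own mean. For Anxa2 it was Msantd3 (0.172), for Gpnmb Scel (0.319), for Cd44 Slc25a24 (0.28), for Tff3 Basp1 (0.166) and for Vcam1 Adam19 (0.138). For Vim it was Rftn1 (0.142), for Krt8 Rbm12 (0.0926), for Krt18 Lrrfip1 (0.14) and for Krt19 C3h15orf48 (0.632). The SD of the gene itself over these arrays was 0.578 for Anxa2, 0.813 for Gpnmb and 0.679 for Cd44, so these neighbours lay well inside it, while for Krt19 the SD was 0.922. All genes share the 16 arrays and their scaling, so this is a description of these arrays.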

How the data were processed

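RNA of the renal outer medulla was labelled with Cy3 and hybridised to one-colour Agilent arrays, and the submitters' processing notes name Agilent Feature Extraction 10.7 as the software. The deposited files hold each spot's processed signal intensity, background-subtracted by the authors' scanner software, with marks for spots well above background. The authors' deposited value table holds a ratio, which matched the processed signal over its array's 75th percentile (median quotient 1.0). The level is log2 of the intensity less the array's own 75th percentile, over 61657 probes. Spots marked non-uniform (0 to 9 per array) were left out; none was saturated.

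Probes were named by RefSeq accession, without version, through a table of GRCr8; 27460 were named. A gene was read from its brightest probe by mean level (12 arrays), which had to be marked above background throughout 1 or more of the 4 groups. The arrays of days 14 and 28 were fitted with limma 3.58.1 in R 4.3.3, 1 mean per group, with Benjamini-Hochberg adjustment over 11849 genes, and checked on simulated data. Alternatives were other scalings, background correction (normexp on median spot and background signals, offset 50), filters, probe rules, slide and replicate blocks, and leaving out each array. Replicates are separate animals, per the labels, and precision is limited by how few arrays there are. The genes and lists were chosen with earlier results of these data known. All 10 genes are named. From each list, called genes are named, up to 4 with the largest change (1 result is not reported here), and S100a10, Cd163, Cd14, Has2, Has3, Lum, Postn and Fap were named after their values were seen. The nearest profile was sought among genes with at least 0.5 times the member's SD.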

Additional observations from a re-analysis of the deposited data

Results flagged for a closer look

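Vim, Krt18 and Vcam1 moved in opposite directions in the pools of days 1 and 7. Vim had a log2 ratio of 0.24 at day 1 and -0.27 at day 7. For Krt18 the ratios were 0.63 and -0.32, and for Vcam1 they were 0.25 and -0.85. Each rests on 1 pooled array per group and day, and the difference between the days was not tested.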

How the results depend on the processing

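The genes called were few, and the counts turned on single arrays. At day 14 the count of 1 (Gpnmb) became 0 without a filter on dim probes (limma adjusted p = 0.0587), over all probes (0.0514), in the 6 arrays of that day alone and with slide as a fixed block, and lay between 0 and 1 when arrays were left out. At day 28 the count of 1 (Anxa2) became 0 under quantile normalization and normexp with quantile normalization (limma adjusted p = 0.0815) and lay between 0 and 1 when arrays were left out. Between vehicle groups the count of 1 became 0 under normexp, without a filter and with slide as a fixed block, and 2 (Anxa2 and Tff3) with slide as a random block, and lay between 0 and 2 when arrays were left out. The count of 2 (Anxa2 and Gpnmb) in the mean of both days lay between 1 and 3 when arrays were left out, and no difference between the 2 effects was called under any setting. With slide as a fixed block the day 14 log2 ratios turned to -0.01 for Vim, -0.01 for Krt18, -0.20 for Krt19 and -0.25 for Vcam1, where 1 ANP array remains. Krt8 at day 28 turned to -0.02 under quantile normalization and under normexp. When arrays were left out, ranges that crossed 0 were -0.03 to 0.73 for Cd44 and -0.15 to 0.39 for Vcam1 at day 14, and -0.02 to 0.03 for Krt8 and -0.13 to 0.22 for Gpnmb at day 28. The mean of all 6 Cd44 probes, of which 3 are dim, was 2.13 at day 1. For the dim Krt20 probe the log2 ratio at day 1 ran from 0.79 to 3.23, so not every setting placed it at 2-fold or more. At day 7 it ran from 0.39 to 2.48. All genes called at day 14 numbered 57, and 119 under normexp, 28 without a filter, 29 over all probes, 20 in the day's own arrays, 0 with slide as a fixed block, 133 with slide as a random block and 1 to 93 when arrays were left out; at day 28 they numbered 851, and 431 in the day's own arrays, 1859 with slide as a random block and 211 to 975 when arrays were left out. Between vehicle groups they numbered 1321, and 0 with slide as a fixed block, 2203 as a random block and 430 to 1598 when arrays were left out. The estimated slide correlation was -0.089, which narrows that fit's errors. With the replicate number as a block the counts stayed 1 (Gpnmb, limma adjusted p = 0.0359) at day 14 and 1 (Anxa2, 0.0147) at day 28, with 36 and 783 genes called. Same-numbered arrays deviated together at r of 0.069 to 0.144 at day 14 and -0.068 to 0.112 at day 28, so the numbers were not taken to pair the animals. The causes of these changes were not tested.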
